A study of Mus musculus with 9 samples.

Results

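The cytosolic ribosomal protein genes encode the proteins of the ribosome that translates nuclear messages, and 78 of them were followed here among 11260 genes tested in BV2 cells, an immortalised line of mouse microglia. They were chosen by name: a protein-coding gene with an Rpl or Rps symbol of the standard form (a number, with or without a, l or x, or the stalk and laminin receptor names Rplp0, Rplp1, Rplp2 and Rpsa), listed at 1 TPM or more in at least 3 of the 9 libraries. TPM is an abundance scaled by transcript length and set to the same total in every library, so every value below is a share of that library's RNA. Of 83 matching symbols, 80 were protein-coding and 3 (Rps4l, Rpl6l and Rpl32l) were annotated as pseudogenes. The coding genes Rpl39l and Rpl10l, relatives of Rpl39 and Rpl10, fell below the filter. Rpl39l was listed at 0.54 TPM in Control replicate 2 and at 0.41 TPM in LPS+Pilo replicate 3, and Rpl10l at 0.05 TPM in Control replicate 2; both were at 0 elsewhere. The 78 genes comprised 47 of the large subunit and 31 of the small subunit and lay on 19 chromosomes, with 14 of them on chromosome 7. Some proteins of the ribosome are encoded under other names, such as Fau and Rps3a1, and those genes are described apart.

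The 9 libraries of wild-type BV2 cells formed 3 groups of 3: Control (no treatment given in the labels), LPS (lipopolysaccharide, a bacterial cell wall component that activates microglia) and LPS+Pilo (lipopolysaccharide with a treatment that the labels abbreviate as Pilo). Neither dose nor duration is stated in the labels, nor what Pilo stands for, and no group received Pilo alone. Replicates are labelled biological, but whether each was its own culture is not stated, and p-values therefore speak only for the spread among these libraries. BV2 is 1 cell line, and the design asked how Pilo altered the inflammatory response to lipopolysaccharide in it.

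Each ribosome joins a small subunit, which reads the message, to a large subunit, which forms peptide bonds. A cell therefore needs nearly all of these proteins in matched amounts, and their genes are among the most highly transcribed in dividing cells. Their messages belong to the TOP class: transcription starts at a C that is followed by a run of pyrimidines (C or T in DNA), a terminal oligopyrimidine tract. Through that tract, mTORC1 signalling and the protein Larp1 raise or withhold the translation of the whole class together, often with little change in message abundance. Message levels, as measured here, do not report how many of these messages were being translated.

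RefSeq start sites on build GRCm38.p6 were matched by symbol for 58 of the 78 genes, of which 10 had more than 1 start. A C at the annotated start followed by at least 4 pyrimidines was present for 13 of the 58 genes (22.4%). The shares were 2.68% of 7874 other protein-coding genes tested and 3.01% of all 27025 genes with a RefSeq start, tested here or not. These 13 genes were Rpl14, Rpl15, Rpl28, Rpl35, Rpl35a, Rpl38, Rplp2, Rps6, Rps10, Rps15a, Rps18, Rps21 and Rps27. A run of at least 8 pyrimidines within 15 bases of the start was present for 26 of the 58 (44.8%). It was present for 14.2% of the other tested genes and 13.9% of all genes with a RefSeq start. The following 6 starts show the tract, which is in capitals from the start base onward; each sequence has 15 bases before the start and 15 from it.
Rps6: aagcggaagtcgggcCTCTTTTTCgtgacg
Rps10: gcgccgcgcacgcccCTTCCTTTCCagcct
Rpl35: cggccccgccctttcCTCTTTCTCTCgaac
Rpl28: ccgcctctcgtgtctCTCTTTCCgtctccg
Rps27: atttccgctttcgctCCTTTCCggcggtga
Rpl38: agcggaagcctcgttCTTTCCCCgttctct
They lie at chr4:86857353-86857382 (minus strand), chr17:27635230-27635259 (minus), chr2:39005117-39005146 (minus), chr7:4792950-4792979 (plus), chr3:90213634-90213663 (minus) and chr11:114668565-114668594 (plus), in the order shown.

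The genes that differed between LPS+Pilo and Control (described below) are shown for comparison with those tracts. Left out are Rpl38, shown above, and Rpl23a, which had no RefSeq start entry. Capitals mark a run of at least 8 pyrimidines wherever it lies in the window; a sequence with no capitals has none.
Rps7: gcttccggtttccacccacctacttccgct
Rpl31: CTTCCTCCTCgcctccccgtgacccggaag
Rpl36a: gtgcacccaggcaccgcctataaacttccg
Rpl34: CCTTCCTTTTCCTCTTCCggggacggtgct
Rpl10: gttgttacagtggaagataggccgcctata
These windows lie at chr12:28635939-28635968 (minus), chr1:39367836-39367865 (plus), chrX:134585639-134585668 (plus), chr3:130730323-130730352 (minus; the other annotated start is not shown) and chrX:74270801-74270830 (plus). Apart from Rpl38, none of the called genes with an entry had the C and 4 pyrimidines at the annotated start, although Rpl31 had a run of 10 pyrimidines before it and Rpl34 one of 18 that spans it. An annotated start can differ by a few bases from the start used in the cell, and no start was measured here. The motif CGGAAG was searched on both strands of the 300 bases from 250 before to 50 after the start. It was present for 40 of 58 genes (69.0%), against 38.7% of the other tested genes and 18.8% of all genes with a RefSeq start. Its complement reads CTTCCG, whose pyrimidines can overlap such a run. TATAAA was present for 6 (10.3%), against 7.89% and 15.7%. These matches describe letters only.

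Over all 9 libraries, 10726 to 11123 genes reached 1 TPM, and the 37 mitochondrially encoded genes took 1.85% to 2.82% of the signal; sequencing depth is unknown because TPM hold no counts. The microglia and macrophage markers summed to 3686 to 3865 TPM in Control, 3263 to 3353 with LPS and 3012 to 3055 with LPS+Pilo, led by Tyrobp, Cd68 and Fcer1g; of 13 in the list 12 were tested. The markers of resident microglia were nearly absent: P2ry12 stayed at or below 0.40 TPM, Aif1 at or below 1.36 and Tmem119 at or below 3.05. Cd3e, Mog, Aqp4 and Rbfox3, which mark other cell types, were at 0 in all libraries. The 4 astrocyte markers summed to at most 0.08 TPM, the 5 fibroblast and endothelial markers to at most 0.36, and the 4 oligodendrocyte markers to 3.99 to 6.57, nearly all Mbp. Of the 5 neuronal markers 3 were at 0, and their sum, nearly all Tubb3, was 164 to 367 TPM in Control, 306 to 403 with LPS and 383 to 457 with LPS+Pilo. The part of these differences in the results was not tested.

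The ribosomal protein genes dominated the transcriptome of these cells. They made up 25 of the 50 genes with the highest mean TPM and 44 of the highest 100. The median gene stood at 1923 TPM over the 9 libraries, with 58 genes at 1000 TPM or more, 17 between 100 and 1000 and 3 below 100. Small subunit genes had a median level of 2469 TPM and large subunit genes one of 1516 TPM. The 10 most abundant genes carried 35.2% of the summed level.

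Rplp1, which encodes an acidic protein of the stalk that recruits elongation factors, was the most abundant of them. It was listed at 13421, 12322 and 11906 TPM in Control, 12259, 11225 and 11291 with LPS and 11584, 13182 and 12197 with LPS+Pilo. The 3 groups overlapped in every pairing. Next by mean level came Rps14 (7385 TPM), a protein of the small subunit platform. Rpl8 (6994), Rpl36 (6202) and Rpl41 (6179), the last encoding the smallest ribosomal protein, were also among the most abundant. Rps14 and Rpl8 could not be ordered beyond their spread, since Rps14 alone ranged from 6425 to 8709 TPM over the libraries.

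At the other end stood Rpl3l (1.05 TPM on average), Rpl5 (41.0), Rpl12 (89.0) and Rps20 (117). Rpl3l, the relative of Rpl3 used in heart and skeletal muscle, passed the filter only through Control replicates 2 and 3 and LPS replicate 3, at 1.47, 1.54 and 1.53 TPM; the other 6 libraries were between 0.72 and 0.95. Rpl3 itself, which shapes the peptide bond centre, averaged 1291 TPM. Rpl5, Rpl12 and Rps20 encode standard proteins of the ribosome, and each has a nearly identical annotated copy that was listed far higher.

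Such copies were widespread. Transcripts of other genes that matched a ribosomal protein transcript over at least 150 bases at 98% identity or more, on the same strand, were found for 64 of the 78 genes: 232 pairs, of which 218 involved a gene with a pseudogene biotype. For 15 genes the copies together were listed above the gene itself. Rpl12, whose protein lies at the base of the stalk, was at 89.0 TPM and its copies at 3279, nearly all in the pseudogene Gm10275, which matches it over 634 bases at 100% identity. Rpl5, which carries 5S ribosomal RNA into the large subunit, was at 41.0 TPM against 501 for its copies, almost all in Gm15500 (1018 bases at 100%). Rpl27a was at 377 TPM against 2565 for copies (Gm7536), Rpl28 at 976 against 2566 (Rpl28-ps1), and Rps20 at 117 against 358 (Gm4332). Reads from stretches where a copy and the gene are identical cannot be told apart, and the sources used here do not say how the authors assigned them. With its copies Rpl12 came to 3368 TPM, and Rps28, listed at 3063 TPM with copies at 6174, became the second most abundant of the set. The copies held 2.85% to 3.75% of each library's TPM, and the levels and order above hold for the listed genes alone.

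**Figure D1:**
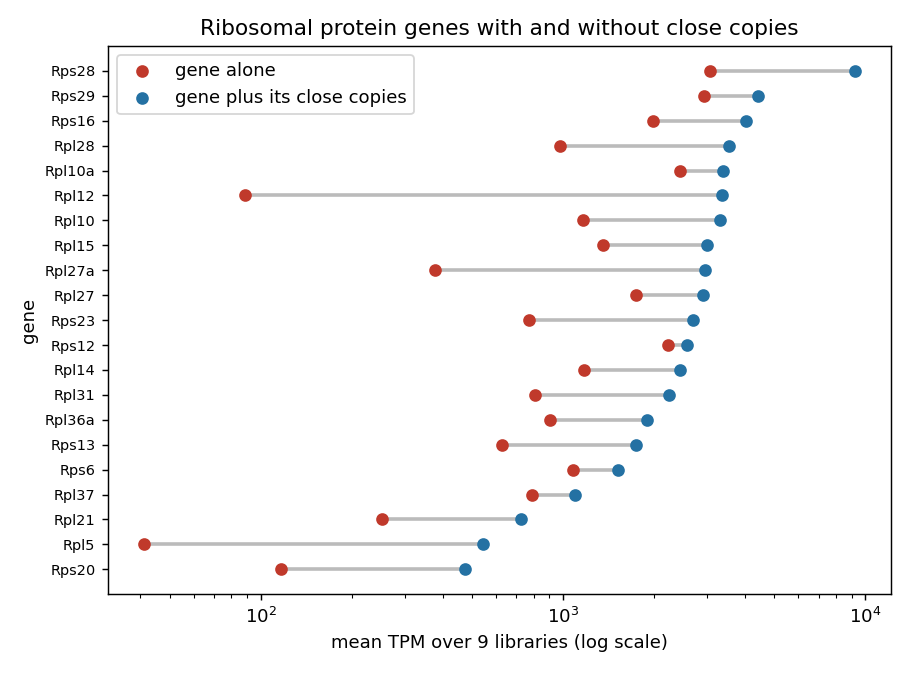
Mean TPM over the 9 libraries (horizontal axis, log scale) of the 21 ribosomal protein genes whose close copies reached 10% of their own level; red points are the gene alone and blue points the gene plus its copies. Rpl12 moves from 89.0 to 3368 TPM and Rpl5 from 41.0 to 542, while Rps12 moves little.

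The summed level of the 78 genes was highest in Control and lower in both treated groups. It took 19.3%, 21.4% and 20.8% of all TPM in Control replicates 1 to 3, 17.3%, 17.9% and 20.0% in LPS, and 18.9%, 19.0% and 19.0% in LPS+Pilo. The LPS group was the most spread and overlapped both others through its replicate 3, while the 3 LPS+Pilo libraries were nearly equal and all lay below the lowest Control library. Group means were 20.5 ± 1.07% in Control, 18.4 ± 1.40% with LPS and 19.0 ± 0.0734% with LPS+Pilo (SD, n = 3 each). On the log2 scale the ratio of these means was -0.158 for LPS against Control, 0.045 for LPS+Pilo against LPS and -0.113 for LPS+Pilo against Control. No test is given for this sum, because the genes were chosen with earlier results of these data known. The summed level of the microglia markers above was also lower from group to group, but not every marker was. Of 12 tested, 5 were above 0 and 7 below in LPS against Control. In LPS+Pilo against LPS 2 were above and 10 below, and in LPS+Pilo against Control 3 and 9. The part of the marker sum in these values was not tested. In bulk RNA, fewer cells with a message and less of it per cell cannot be told apart, and neither can less of these messages and more of others.

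The ratio between the subunits overlapped in all 3 groups. Large subunit genes summed to 119963 ± 4577 TPM in Control, 107899.6 ± 7375 with LPS and 110152 ± 1487 with LPS+Pilo (SD, n = 3 each), and small subunit genes to 8.51 ± 0.622%, 7.59 ± 0.687% and 7.94 ± 0.0822% of all TPM. The ratio of the summed large to the summed small subunit level was 1.476, 1.383 and 1.379 in Control, 1.487, 1.386 and 1.400 with LPS and 1.355, 1.421 and 1.385 with LPS+Pilo. The highest values of the 9 were those of Control replicate 1 and LPS replicate 1. The means, 1.412 ± 0.055, 1.424 ± 0.055 and 1.387 ± 0.033 (SD, n = 3 each), differed by less than the larger SD of the groups compared.

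**Figure D2:**
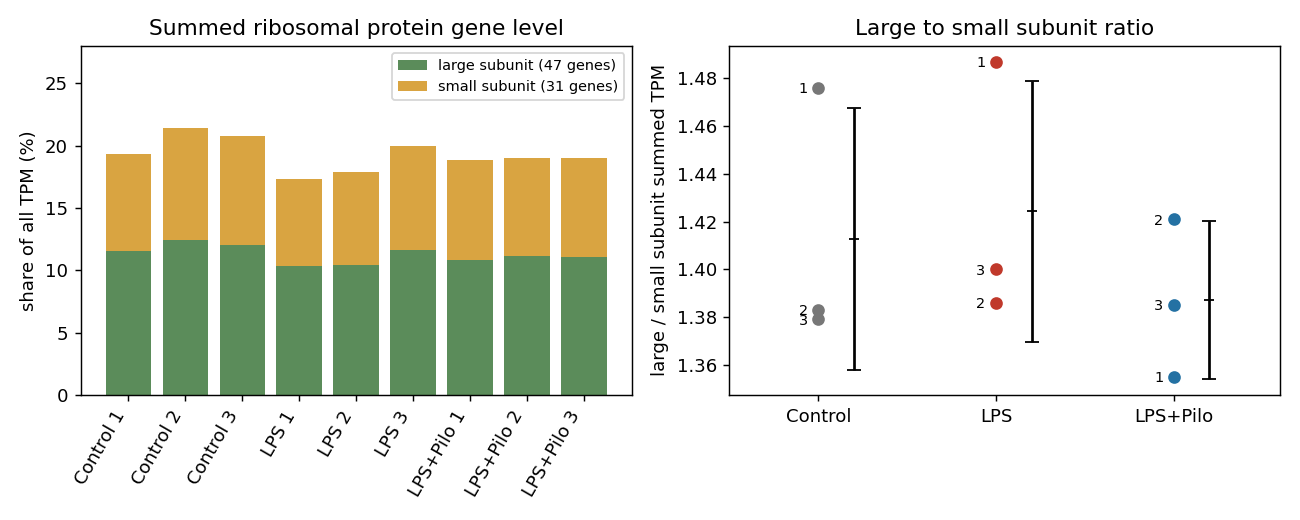
Left, share of all TPM (%) taken by the 47 large and 31 small subunit genes in each library, as stacked bars; right, ratio of summed large to summed small subunit TPM, with points for libraries (numbered by replicate) and bars for the mean ± SD of 3, on an axis that does not start at 0. The sum runs from 17.3% in LPS replicate 1 to 21.4% in Control replicate 2, and the ratios of the 3 groups overlap.

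The ribosomal protein genes varied together from library to library, also within a treatment. LPS replicate 1 was the lowest of all 9 libraries for 39 of the 78 genes, and Control replicate 2 the highest for 33. Within Control, replicate 1 was the lowest library for 53 genes (67.9%), against 19.3% of all genes tested. Within LPS, replicate 1 was the lowest for 49 (62.8%, against 18.9%) and replicate 3 the highest for 61 (78.2%, against 15.9%). Most genes tested ran the other way in Control replicate 1, the highest of its group for 62.4% of them. The same held in LPS replicate 3, the lowest of its group for 66.3%. LPS replicate 1 was the highest of its group for 40.6% of all genes tested, and LPS replicate 2 for 43.0%. Since TPM share a fixed total, these directions are tied to each other, and the part of that in the results was not tested. A set of 42 ribosomal protein genes was lowest of the group in both replicate 1 libraries, 23 of the large and 19 of the small subunit. Another 6, among them Rpl13, Rplp1, Rps3, Rps20 and Rps27a, were highest of the group in both. Across the 78 genes, the deviation from the group mean correlated between Control replicate 1 and LPS replicate 1 (Pearson r = 0.76) and between Control replicate 2 and LPS replicate 3 (0.77), and inversely between Control replicate 1 and LPS replicate 3 (-0.83). These correlations describe 78 genes measured in the same libraries, whose 3 deviations in a group sum to 0.

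Rpl11 and Rpl10a show the shared pattern most plainly. Rpl11, which with Rpl5 binds Mdm2 when ribosome assembly fails, was at 1032, 1877 and 1768 TPM in Control, 938, 1360 and 1797 with LPS and 1450, 1394 and 1455 with LPS+Pilo. Rpl10a, the protein of the flexible stalk beside the exit site of tRNA, was at 1844, 2910 and 2894 TPM in Control, 1527, 2281 and 2876 with LPS and 2539, 2569 and 2535 with LPS+Pilo. In both, the low libraries were the first of Control and the first of LPS, while LPS+Pilo was nearly flat. Rps27a, which encodes ubiquitin fused to a small subunit protein, ran the other way in Control, at 1671, 1279 and 1133 TPM, then 1411, 1246 and 1152 with LPS and 1187, 1023 and 880 with LPS+Pilo. The median gene varied 1.40-fold between its highest and lowest library, and the median SD of log2(TPM + 1) over 9 libraries was 0.166, against 0.164 for 1331 other genes of at least 100 TPM. Rpl39 (0.404), Rpl11 (0.345), Rpl10a (0.319) and Rpl36a (0.289) had the largest SD, and Rplp2 (0.063) and Rpsa (0.074) the smallest. Rplp2, another stalk protein, stayed between 1664 and 1890 TPM, and Rpsa, a small subunit protein also described as a laminin receptor, between 3035 and 3491.

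**Figure D3:**
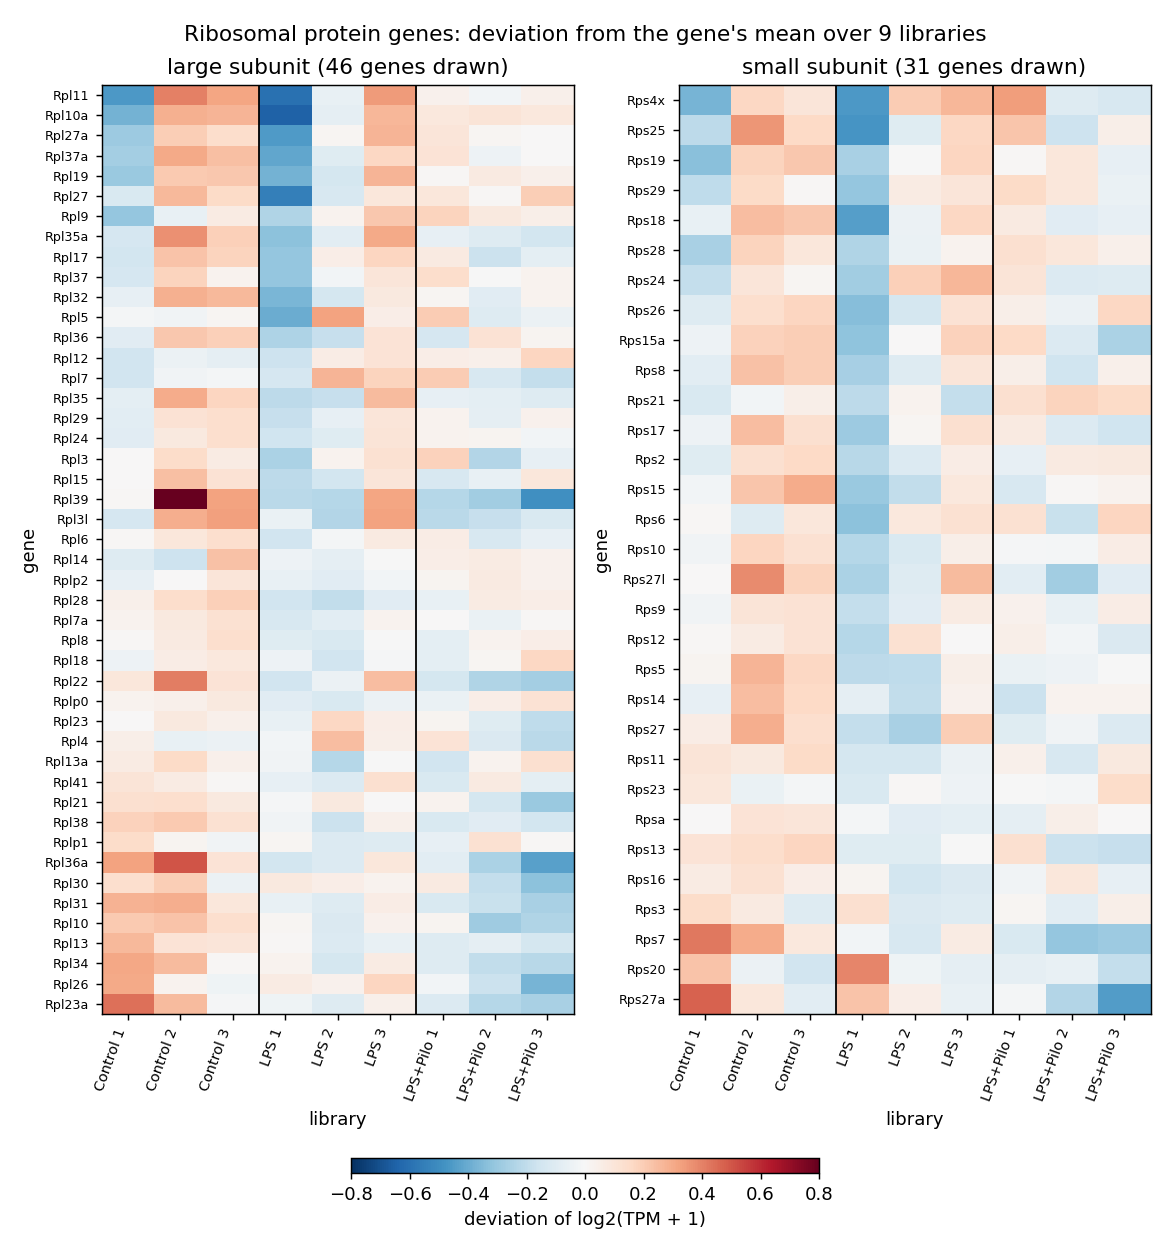
Deviation of log2(TPM + 1) from the gene's own mean over 9 libraries (colour, from -0.8 to 0.8) for 46 of the 47 large and all 31 small subunit genes (rows) in 9 libraries (columns, black lines part the groups); rows are ordered by the summed deviation in Control replicate 1 and LPS replicate 1. Blue in the columns of both those libraries covers much of the upper rows of each panel, and Rps20 and Rps27a at the foot are red in both.

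After lipopolysaccharide alone, most ribosomal protein genes were slightly lower and none passed the test. Of the 78 genes 0 were called in LPS against Control (limma on log2(TPM + 1), Benjamini-Hochberg over 11260 genes, adjusted p under 0.05), against 7.76% of all genes tested (4.12% higher, 3.64% lower). At an unadjusted p under 0.05, 12 were lower and 0 higher, against 10.4% and 12.3% of all genes. The fold change was below 0 for 69 genes (88.5%, against 41.1% of all genes below 0 and 58.9% above), and the median was -0.15 (log2), against 0.07 over all genes; the range was -0.42 to 0.17. The median was -0.08 without LPS replicate 1 and -0.09 with quantile normalization. In the other direction it was -0.21 with median ratio scaling, -0.20 without LPS replicate 3 and -0.19 without Control replicate 1. Large subunit genes had a median of -0.14 and small subunit genes one of -0.16. All 3 LPS libraries lay below all 3 Control libraries for 16 genes (20.5%) and above for 0, against 13.1% and 11.2% of all genes.

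The gene nearest to the threshold was Rpl28 (adjusted p = 0.0618, limma), named after its values were seen. It averaged 1061 ± 55.7 TPM in Control, 879 ± 33.9 with LPS and 988 ± 46.6 with LPS+Pilo (SD, n = 3), with a log2 fold change of -0.27 in LPS. It passed when the TPM were quantile normalised, when the 78 genes were left out of the total or when Control replicate 1 was left out, at adjusted p down to 0.0353, and it did not pass in the other 18 alternatives. The lowest fold changes were those of Rpl39 (-0.42 ± 0.20 SE), Rpl36a (-0.37 ± 0.13) and Rpl32 (-0.30 ± 0.13), with adjusted p of 0.262, 0.117 and 0.212 (limma). The highest were those of Rpl7 (0.17 ± 0.13), Rpl4 (0.11 ± 0.10) and Rpl9 (0.10 ± 0.13), all large subunit proteins, with adjusted p of 0.477 or above (limma).

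Adding Pilo to lipopolysaccharide left every ribosomal protein gene uncalled. In LPS+Pilo against LPS, 0 of 78 passed, against 0.0444% of all genes (0.00888% higher and 0.0355% lower). By unadjusted p under 0.05, 1 was higher and 1 lower, against 3.04% and 3.72% of all genes. The median fold change was 0.05 (log2), against -0.05 over all genes, with 47 genes above 0 and 31 below, where 39.7% of all genes were above and 60.3% below. The median was -0.02 without LPS replicate 1, the library in which these genes were lowest, and 0.11 without LPS replicate 3. Large subunit genes had a median of 0.02 and small subunit genes one of 0.06.

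Rps21, a small subunit protein, came nearest. It was at 2981, 3525 and 3025 TPM in LPS and 3775, 3904 and 3841 in LPS+Pilo, with 3176, 3400 and 3567 in Control. All 3 LPS+Pilo libraries were above the other 6, and the log2 fold change against LPS was 0.28 ± 0.09 (unadjusted p = 0.0125, adjusted p = 0.533, limma). Rpl27 (0.29 ± 0.16) and Rpl10a (0.24 ± 0.23) were the other large positive values, and in both LPS replicate 1 was the lowest library of the 9. On the negative side stood Rps27a (-0.31 ± 0.16), Rpl39 (-0.29 ± 0.20) and Rpl26 (-0.28 ± 0.12), with adjusted p of 0.707 or above (limma). Rpl26, which is also known to bind the message of p53, was at 2396, 2347 and 2578 TPM in LPS and 2255, 2032 and 1773 in LPS+Pilo, without overlap. Groups did not overlap for 5 genes higher and 3 lower, which is 6.41% and 3.85% of 78, against 5.58% and 6.63% of all genes.

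**Figure D4:**
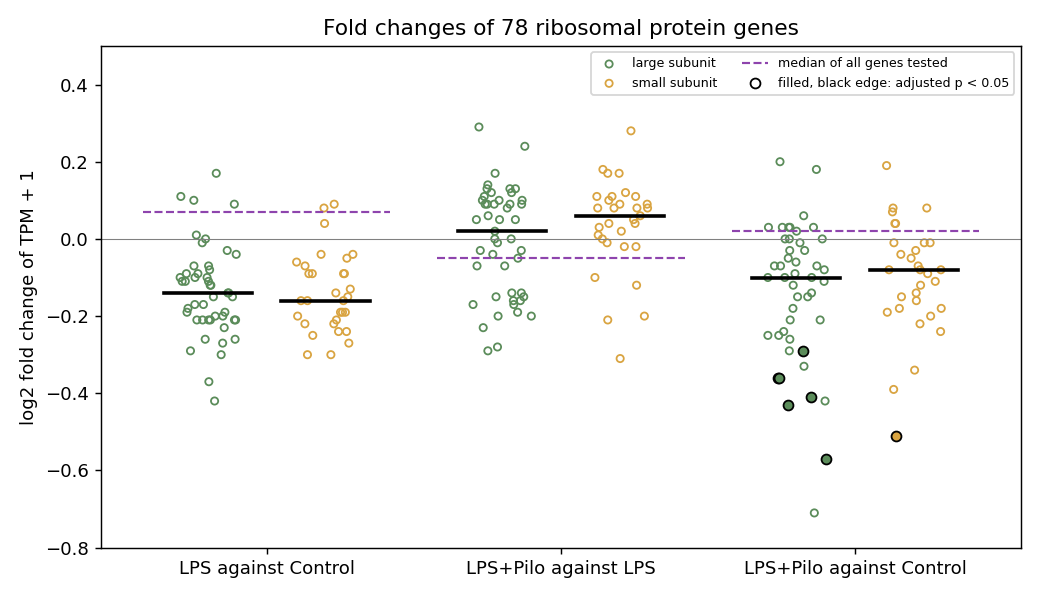
Log2 fold change of TPM + 1 (vertical axis) for the 47 large (green) and 31 small (orange) subunit genes in the 3 comparisons; black bars are subunit medians, dashed lines the median of all 11260 genes tested, and filled points with a black edge the genes with adjusted p under 0.05. The 7 called genes, 6 of the large and 1 of the small subunit, are all below 0 in LPS+Pilo against Control.

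In cells given both agents, 7 ribosomal protein genes were lower than in untreated cells: Rpl36a, Rps7, Rpl23a, Rpl31, Rpl34, Rpl10 and Rpl38. This was 8.97% of the 78 genes, all in 1 direction, against 10.2% of all genes tested in LPS+Pilo against Control (5.30% lower and 4.85% higher), so the share called was near the background for either direction and above that for lower genes, with 7 genes behind it. Large subunit genes gave 6 of 47 (12.8%) and small subunit genes 1 of 31 (3.23%); that difference was not tested. At an unadjusted p under 0.05, 15 were lower and 0 higher, against 12.3% and 11.6% of all genes. The median fold change was -0.10 (log2), against 0.02 over all genes, with 60 genes below 0 and 18 above (47.1% and 52.9% of all genes), and subunit medians were -0.10 (large) and -0.08 (small). LPS+Pilo lay wholly below Control for 16 genes (20.5%) and wholly above for 2, Rpl12 and Rps21 (2.56%), against 15.6% and 14.9% of all genes.

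Rpl36a, whose protein sits at the exit site of tRNA, had the largest called difference. It was at 1113, 1258 and 958 TPM in Control, 804, 824 and 946 with LPS and 837, 746 and 657 with LPS+Pilo. Both treated groups lay below Control, and the log2 fold change of LPS+Pilo was -0.57 ± 0.13 (SE; adjusted p = 0.0191, limma). Rps7, a small subunit protein that can also bind Mdm2, was at 1890, 1733 and 1495 TPM in Control, 1388, 1288 and 1473 with LPS and 1292, 1138 and 1154 with LPS+Pilo. Its 3 Control libraries were above the other 6, with a log2 fold change of -0.51 ± 0.10 (adjusted p = 0.0133, limma). Rpl31, a protein at the mouth of the tunnel through which the new peptide leaves, was at 973, 982 and 856 TPM in Control, 769, 747 and 836 with LPS and 738, 710 and 670 with LPS+Pilo. No library of 1 group overlapped another group, and its log2 fold change was -0.41 ± 0.08 (adjusted p = 0.0144, limma).

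Rpl23a, which docks the signal recognition particle at the tunnel mouth, was at 4504, 3966 and 3303 TPM in Control, 3242, 3097 and 3421 with LPS and 3083, 2842 and 2777 with LPS+Pilo. Control replicate 1 was the highest by far, and the log2 fold change was -0.43 ± 0.11 (adjusted p = 0.0455, limma). Rpl34 was at 1865, 1789 and 1514 TPM in Control, 1534, 1362 and 1573 with LPS and 1403, 1310 and 1291 with LPS+Pilo (-0.36 ± 0.10, adjusted p = 0.0474, limma). Rpl10, which joins the large subunit late in its assembly, was at 1333, 1350 and 1265 TPM in Control, 1166, 1063 and 1179 with LPS and 1171, 948 and 976 with LPS+Pilo (-0.36 ± 0.09, adjusted p = 0.0425, limma). For Rpl34 the LPS libraries overlapped Control, and for Rpl10 they did not. Rpl38, known for its part in translating Hox messages, had the smallest called difference (-0.29 ± 0.08, adjusted p = 0.0461, limma) and was named after its values were seen. Its level was 2675, 2718 and 2556 TPM in Control, 2304, 2085 and 2418 with LPS and 2159, 2204 and 2124 with LPS+Pilo.

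**Figure D5:**
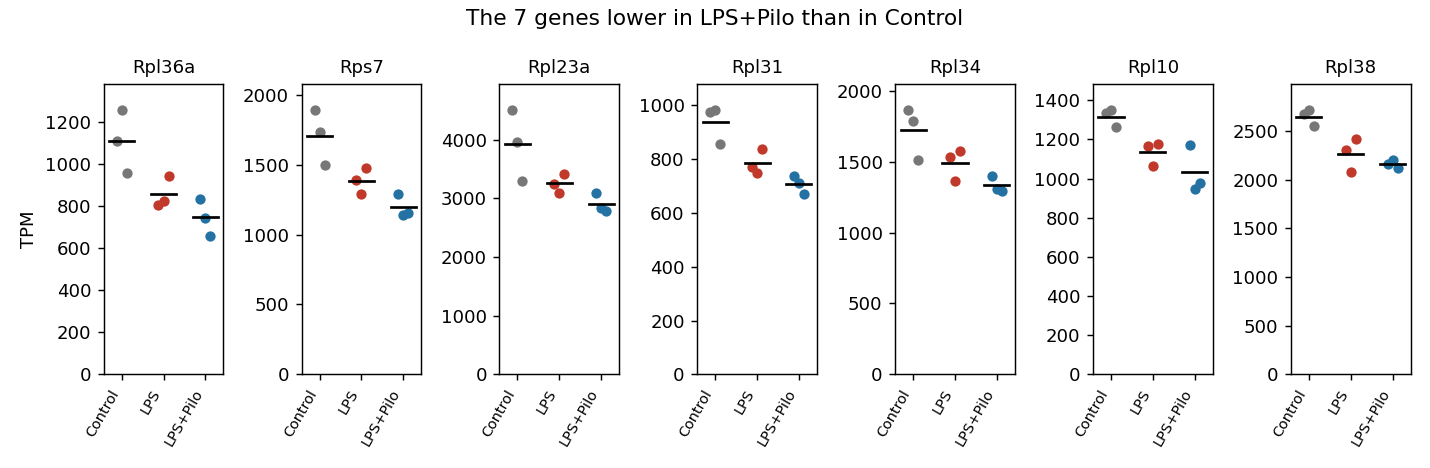
TPM (vertical axes, from 0, scaled to each gene) of the 7 genes called lower in LPS+Pilo than in Control; points are libraries and bars group means. The LPS libraries have group means between those of Control and LPS+Pilo in all 7 panels, and Rpl31 is the gene whose 3 groups are fully apart.

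These calls differed in how they withstood other settings. Over 21 alternatives, Rps7 was called in 19 (adjusted p 0.00995 to 0.0613, limma), Rpl31 in 17 (0.0101 to 0.0759) and Rpl36a in 16 (0.00939 to 0.0767). Rpl10 was called in 8, Rpl23a and Rpl34 in 7 each and Rpl38 in 5. Without LPS+Pilo replicate 2, or without LPS+Pilo replicate 3, none of the 78 was called, against 5.92% and 6.18% of all genes. Without Control replicate 2 only Rps7 was called, against 7.67% of all genes. The count was 4 without Control replicate 1 (9.12% of all genes) and 3 without LPS replicate 1 or 2 (9.43% and 9.01%). Of the 7 genes, Rpl10, Rpl31 and Rpl36a have copies above their own level. With the copies added, the log2 fold change of Rpl31 was -0.40 and that of Rpl36a -0.52, both still called, whereas Rpl10 moved to -0.20 (adjusted p = 0.201, limma).

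Rpl39 had the largest difference of all 78 genes, without a call. This tunnel protein, whose relative Rpl39l is used in the testis, was at 798, 1377 and 993 TPM in Control, 684, 677 and 985 with LPS and 677, 653 and 563 with LPS+Pilo. Control replicate 2 stood far above the others, and the log2 fold change in LPS+Pilo against Control was -0.71 ± 0.20 (adjusted p = 0.0585, limma). It passed in 5 alternatives, among them the one without Control replicate 1 (-0.89, adjusted p = 0.0199, limma) and the one with its copies added (-0.75, 0.0332). Rpl22, a large subunit protein with roles in lymphocyte development, was at 1313, 1638 and 1329 TPM in Control and 1120, 1045 and 1023 in LPS+Pilo, again without overlap (-0.42, adjusted p = 0.0634, limma). Rps27a (-0.39 ± 0.16, adjusted p = 0.163) and Rps27l (-0.34 ± 0.14, 0.180), a relative of Rps27 that p53 induces, were not called by limma. The largest positive values were those of Rpl9 (0.20 ± 0.13), Rps21 (0.19 ± 0.09) and Rpl12 (0.18 ± 0.09), with adjusted p of 0.252 or above (limma). Rpl12 with its copies was at -0.17 instead, so its direction rests on how reads of Gm10275 were assigned.

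Rpl13a, Rps3, Rps6, Rps19, Rps4x and Rplp0, named for their known roles or common use, were not called in any comparison. Rpl13a, which in myeloid cells can leave the ribosome to silence inflammatory messages, averaged 5615 ± 228 TPM in Control, 4989 ± 418 with LPS and 5315 ± 524 with LPS+Pilo (SD, n = 3); its LPS libraries were all below its Control libraries (-0.17 ± 0.10, adjusted p = 0.354, limma). Rps3, which is also described as a partner of NF-kB, averaged 2588 ± 226, 2472 ± 245 and 2507 ± 118 TPM in the same order. Rps6, the target of the S6 kinases, averaged 1072 ± 71.4, 1052 ± 173 and 1107 ± 140 TPM. Rps19, the gene most often mutated in Diamond-Blackfan anaemia, averaged 949 ± 188, 911 ± 135 and 931 ± 50.5 TPM. For Rps3, Rps6 and Rps19 the group means differed by less than the SD within Control. Rps4x, on the X chromosome, ranged from 820 to 1420 TPM over the 9 libraries with no order by group. Rplp0, the scaffold of the stalk and a common reference gene, averaged 5682 ± 102, 5164 ± 129 and 5639 ± 333 TPM; its LPS libraries were all below its Control libraries (-0.14 ± 0.08, adjusted p = 0.339, limma). Rps27, a small subunit protein, was called once, without LPS replicate 3 (-0.39 in LPS against Control, adjusted p = 0.0473, limma).

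Of 9 ribosomal protein genes under other symbols and their relatives, 0 passed in any comparison. Of all genes, 7.76%, 0.0444% and 10.2% were called (LPS against Control, LPS+Pilo against LPS, LPS+Pilo against Control). With so few genes, a count of 0 is near those shares. Medians of the 9 were -0.02, -0.01 and 0.06, against 0.07, -0.05 and 0.02 over all genes. Fau averaged 2308 ± 179 TPM in Control, 2221 ± 138 with LPS and 2455 ± 150 with LPS+Pilo. Rack1, a scaffold on the small subunit head, averaged 3639 ± 151, 3100 ± 111 and 3473 ± 178 TPM; its 3 LPS libraries were below the other 6, yet it was not called (-0.23 ± 0.08 in LPS against Control, adjusted p = 0.115, limma). Of 19 other genes with TOP messages, translation factors and a few others such as Tpt1, Npm1, Nap1l1, Hnrnpa1 and Vim, 0 were called. That count too is to be read beside the shares of all genes above. Their medians were 0.07, -0.16 and -0.02. Eef1a1, which delivers tRNA to the ribosome, averaged 5854 ± 742, 5694 ± 299 and 5122 ± 560 TPM, and Eef2, which moves the ribosome along the message, 2166 ± 116, 1886 ± 270 and 2134 ± 90.7. Tpt1 averaged 1349 ± 275, 1314 ± 129 and 1134 ± 123 TPM, and Npm1, a nucleolar chaperone, 508 ± 75.3, 684 ± 151 and 577 ± 64.8. None of these 4 passed.

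A few genes that build ribosomes or regulate their messages were called, all in comparisons with Control. Of 38 genes for ribosome assembly and RNA polymerase I, 1 was called higher in LPS than in Control, where 4.12% of all genes tested were. In LPS+Pilo against Control 3 were called higher, against 4.85% of all genes; 0 were lower in either comparison, and 0 were called between the treated groups. The medians were 0.22 in LPS against Control, 0.12 in LPS+Pilo against Control and -0.12 in LPS+Pilo against LPS, against 0.07, 0.02 and -0.05 over all genes. In LPS against Control 34 of 38 were above 0, a larger share than the 58.9% of all genes, and that difference was not tested. Rrp9, which binds the U3 RNA that guides cutting of ribosomal RNA, rose from 238 TPM in Control to 323 in LPS (0.44 ± 0.08, adjusted p = 0.0118, limma) and 342 in LPS+Pilo (0.52 ± 0.08). Eif6, which keeps the subunits apart until the large one is mature, rose from 412 to 553 TPM in LPS+Pilo (0.43 ± 0.11), and Nop16, a nucleolar assembly factor, from 227 to 287 (0.34 ± 0.07). Of 17 tested genes that control TOP messages and mTORC1, 3 rose in LPS (4.12% of all genes did) and the same number in LPS+Pilo against Control, where 1 fell (4.85% and 5.30% of all genes). The shares that rose were above those of all genes, with 3 genes behind each, and that difference was not tested. Eif4ebp1, a repressor of cap-dependent translation that mTORC1 inactivates, rose from 114 TPM in Control to 174 in LPS (0.60 ± 0.08, adjusted p = 0.00227) and 225 in LPS+Pilo (0.97 ± 0.08, adjusted p = 9.3e-05; limma). Zfp36, which speeds decay of inflammatory messages, rose from 10.5 to 24.9 TPM with LPS and 20.3 with LPS+Pilo. Mdm2, the p53 ligase that free Rpl5 and Rpl11 inhibit, rose from 4.71 to 9.39 and 9.85 TPM. Mlst8, a subunit of mTORC1, fell from 9.68 to 6.84 TPM in LPS+Pilo (-0.45 ± 0.12, adjusted p = 0.0448, limma). Larp1 averaged 40.9 ± 12.2, 50.6 ± 13.1 and 43.7 ± 1.49 TPM and was not called, and Myc, a driver of ribosome production, was at or below 0.41 TPM in all libraries and was not tested. Of 78 mitochondrial ribosomal protein genes 0 were called in LPS against Control or LPS+Pilo against LPS, against 7.76% and 0.0444% of all genes. In LPS+Pilo against Control 1 rose (Mrpl52, 276 to 378 TPM) and 1 fell (Mrpl30, 154 to 118), against 10.2% of all genes called. Their medians were -0.01, 0.00 and -0.01, while those of the 78 cytosolic genes were -0.15, 0.05 and -0.10 and those of all genes 0.07, -0.05 and 0.02, in the order of the 3 comparisons above. The comparisons with Control share its 3 libraries.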

How the data were processed

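The authors deposited 1 table of TPM with 55906 genes and 9 libraries, made from TRIzol RNA with the TruSeq kit per the labels' protocols. The submitters' processing notes name STAR 2.7.1a, fastp 0.19.5, DESeq2 1.24.0 and build GRCm39; the program behind the TPM is not given in the sources used here. Symbols and biotypes came by Ensembl identifier from GENCODE M21 (GRCm38; 52133 genes matched). The 11260 genes reaching 1 TPM in 3 libraries were fitted as log2(TPM + 1), which understates changes of low genes, in limma 3.58.1 (R 4.3.3) over all 9 libraries with a variance trend, two-sided, with Benjamini-Hochberg adjustment. Close copies were found among annotated transcripts with BLAST 2.17.0. On simulated data for LPS against Control (11260 genes), 69 of 100 genes changed by 1 on the log2 scale were called. Of 100 genes changed by 2, 96 were called, and so were 8 unchanged genes. Smaller changes, such as those of the 78 genes (-0.71 to 0.29 over all comparisons), were not simulated. Noise was drawn independently for each gene, so these values do not speak for such changes. Named genes were the 6 highest and 4 lowest by mean, the 6 largest called and 3 largest changes per direction and comparison, the 4 largest and 2 smallest SD, and a fixed list; Rpl28, Rpl38 and genes given only in lists of names are exceptions. Of the 6 highest, 1 is not reported here. Members and gene lists were chosen with earlier results of these data known. Alternatives varied pseudocount, filter, scaling, trend, libraries and replicate block; summing copies and leaving out 2 libraries together were added after seeing the data.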

Additional observations from a re-analysis of the deposited data

How the results depend on the processing

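The count of 7 genes called lower in LPS+Pilo against Control became 2 with no filter on low values and 1 with median ratio scaling. It became 3 without the variance trend and 4 with only the 2 groups fitted. Of all genes, 4.72%, 13.5%, 9.48% and 9.79% were called in these settings, against 10.2%. Leaving out 1 library gave 0 to 7, with 5.75% to 11.5% of all genes called. The cause of these differences in count was not tested. The count of 0 in LPS against Control became 1 with quantile normalization (13.5% of all genes) and 1 with the 78 genes left out of the total (9.25%), against 7.76%. Without 1 library it was 0 to 1 (Rpl28 without Control replicate 1, Rps27 without LPS replicate 3), with 3.71% to 9.10% of all genes called. In the main fit, 12 genes had an unadjusted p under 0.05 in limma. In LPS+Pilo against LPS the count was 0 in all alternatives, where at most 0.0546% of all genes were called. The log2 ratio of summed levels in LPS+Pilo against Control was -0.056 with quantile normalization and -0.154 without Control replicate 1, against -0.113. In LPS against Control it was -0.073 with quantile normalization, -0.220 with median ratio scaling and -0.221 without LPS replicate 3, against -0.158. In LPS+Pilo against LPS it was 0.017 with quantile normalization and 0.080 with median ratio scaling, against 0.045. Leaving out 1 of the LPS libraries there gave 0.003 (replicate 1), 0.025 (replicate 2) or 0.108 (replicate 3). The median over the 78 genes in LPS+Pilo against LPS was 0.02 with quantile normalization and 0.10 with median ratio scaling, against 0.05. In LPS+Pilo against Control it was -0.06 with quantile normalization and -0.16 without Control replicate 1, against -0.10. No direction of a called gene reversed. Over all genes, deviations from the group mean correlated at r from -0.225 to 0.165 between same-numbered libraries and from -0.37 to 0.3 between others. The labels do not say whether the numbers pair the libraries. These values cannot decide it, because the 3 deviations of a gene in a group sum to 0. With the replicate block, 6 genes were called in LPS+Pilo against Control (Rps27a gained, Rpl34 and Rpl38 lost), 0 in LPS against Control and 0 in LPS+Pilo against LPS. Of all genes, 9.45%, 7.18% and 0.00888% were called in that setting. Leaving out Control replicate 1 and LPS replicate 1 together, chosen after seeing the data, gave 5, 0 and 0, with 9.32%, 4.49% and 0% of all genes called. Depth is unknown, so counting error could not be given.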
